A study of Mus musculus with 6 samples.

Results

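The genes of the primed epiblast and of the formative state considered here were Pou3f1, Otx2, Pim2, Zic2, Zic5, Foxd3, Utf1, Sox4 and Car14. They were taken as every probe set whose single gene symbol in the array's annotation was one of these names, which gave 21 of the 45101 probe sets on the array and at least 1 for each of the 9 genes. All 6 arrays came from mouse embryonic stem cells of the R1 line that had been given a lentiviral short hairpin RNA (shRNA), and GFP-positive cells were collected by sorting. The control group of 3 arrays carried an shRNA against luciferase, and the other 3 arrays carried shRNA1 against KIAA1718, the protein of Kdm7a, a demethylase of histone H3. Both groups share the virus and the sort, and each rests on a single hairpin. The labels do not say what a replicate was, and every p-value reflects the spread among these 6 arrays, which may be technical.

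Embryonic stem cells in the naive state resemble the epiblast before implantation. As they leave it they pass through a formative state and then a primed state like that of the epiblast after implantation. Otx2 and Pou3f1 (Oct6) encode transcription factors that accompany the change of state, with Otx2 directing Oct4 to new enhancers, and Zic2, Zic5, Foxd3 and Sox4 encode further transcription factors with later roles in neural and neural crest cells. Utf1 encodes a chromatin-bound protein of pluripotent cells, Pim2 a serine/threonine kinase that promotes survival, and Car14 a membrane-bound carbonic anhydrase. Naive genes, which are shut down on leaving the naive state, and further formative and primed genes were read beside them.

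Upstream sequence is shown for Pim2, Utf1 and Sox4, the members with a changed probe set for which RefSeq (GRCm38.p6) gave a promoter. Of the 9 members, 7 had an entry, with 10 windows among them, and each window is the 250 bases before an annotated start. Capitals mark matches, on either strand, to the octamer bound by POU factors (ATGCAAAT), the GC box (GGGCGG), the CCAAT box (CCAAT), the TATA box (TATAAA), the E-box (CACGTG) or a STAT site (TTCNNNGAA). The windows lie at chrX:7878056-7878305 (plus strand), chr7:139943606-139943855 (plus strand) and chr13:28953700-28953949 (minus strand), each written 5′ to 3′ on the strand of its gene.
Pim2: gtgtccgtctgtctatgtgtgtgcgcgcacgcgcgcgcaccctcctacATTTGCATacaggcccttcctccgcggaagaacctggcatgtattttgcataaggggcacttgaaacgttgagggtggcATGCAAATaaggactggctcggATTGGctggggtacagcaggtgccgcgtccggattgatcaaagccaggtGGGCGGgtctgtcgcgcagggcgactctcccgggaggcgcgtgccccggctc
Utf1: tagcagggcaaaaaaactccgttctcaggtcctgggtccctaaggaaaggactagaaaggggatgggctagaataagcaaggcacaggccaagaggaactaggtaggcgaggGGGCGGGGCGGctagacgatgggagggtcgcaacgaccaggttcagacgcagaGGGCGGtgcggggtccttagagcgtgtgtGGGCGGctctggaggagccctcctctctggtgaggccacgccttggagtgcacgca
Sox4: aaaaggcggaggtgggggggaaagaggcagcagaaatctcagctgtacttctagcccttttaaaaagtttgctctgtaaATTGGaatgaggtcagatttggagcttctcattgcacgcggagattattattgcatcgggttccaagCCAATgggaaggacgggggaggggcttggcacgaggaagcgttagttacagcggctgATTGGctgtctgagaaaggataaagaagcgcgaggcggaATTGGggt

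The Pim2 window held 2 octamers, beginning 202 and 123 bases before the start, with a CCAAT box at 101 and a GC box at 52. An octamer occurred in 1.6% of all 32851 promoter windows of this length and 2 or more in 0.0974%. Among the windows of the other members none held this octamer. The Utf1 window held 4 GC boxes, beginning 138, 133, 85 and 56 bases before the start with the first pair overlapping, and 4.09% of all windows held 4 or more. The Sox4 window held 4 CCAAT boxes, at 171, 104, 47 and 8 bases before the start, and 0.84% of windows held 4 or more. Zic2 and Zic5, neighbours on chromosome 14, could not be compared in this way because only Zic5 had an entry, and its window held none of the motifs. These matches describe letters only, and no binding was measured.

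Signals below are the deposited intensities after quantile normalization between arrays. Differences are KIAA1718 shRNA1 minus luciferase shRNA on the log2(signal + 16) scale, which understates changes of dim probe sets, and were tested with limma over 27022 probe sets. Arrays correlated at 0.983 to 0.989 within groups and 0.977 to 0.985 between them. The targeted gene did not pass on the arrays labelled with its shRNA. The brightest Kdm7a probe set went from 38.2 ± 1.12 to 31.8 ± 9.69 (SD, n = 3), a difference of -0.20 with a 95% interval of -0.54 to 0.14 (limma adjusted p = 0.534). Further tested Kdm7a probe sets differed by -0.22 and -0.16 (limma adjusted p = 0.458 and 0.585). Markers of embryonic stem cells were strong on all arrays, with Pou5f1 at 1031 to 1242 in controls and 943 to 1110 in KIAA1718 shRNA1 cells. Of 7 such markers 6 lay below 0, with a median of -0.22 against 0 over all genes. At an unadjusted limma p under 0.05, 4 were lower and none higher. Fgf4 alone passed, lower by 0.72 on the log2 scale (limma adjusted p = 0.00332). Nanog, also lower, joined it in the blocked fit, in which same-numbered arrays form pairs. All 7 markers also belong to the naive or core pluripotency genes read below, so these counts are not separate from those.

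Of the 21 member probe sets, 18 were bright enough to be tested. With KIAA1718 shRNA1, 4 were higher, 1 was lower and 13 did not pass at an adjusted p of 0.05. Over all tested probe sets 3.67% were called, 1.94% higher and 1.74% lower. The 4 that rose were both probe sets of Pou3f1, the single one of Pim2 and the brightest of 8 for Sox4; the one that fell was the brightest of Utf1. The remaining 5 genes, Otx2, Zic2, Zic5, Foxd3 and Car14, had no probe set past the threshold. The median difference of the 18 was 0.18, against 0 over all probe sets, and 13 of them lay above 0, against 50.5% of all. Groups did not overlap in 8 of the 18, against 24.3% of all tested probe sets. Probe sets of 1 gene are not separate members, and 6 of the 18 were of Sox4 and 3 of Zic5. By gene, with the brightest probe set for each, 3 of 9 were higher and 1 lower, against 2.64% and 2.17% of all genes. Of the 9 genes 7 lay above 0, against 50% of all, with a median of 0.26. Their groups did not overlap in 4 of 9, against 3550 of all 12742 genes. Without scaling between arrays the median difference of all probe sets was 0.10, 81.8% of called probe sets were higher in place of 52.8%, and 3 member probe sets, of Pim2 and Pou3f1, were called higher and none lower.

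**Figure D1:**
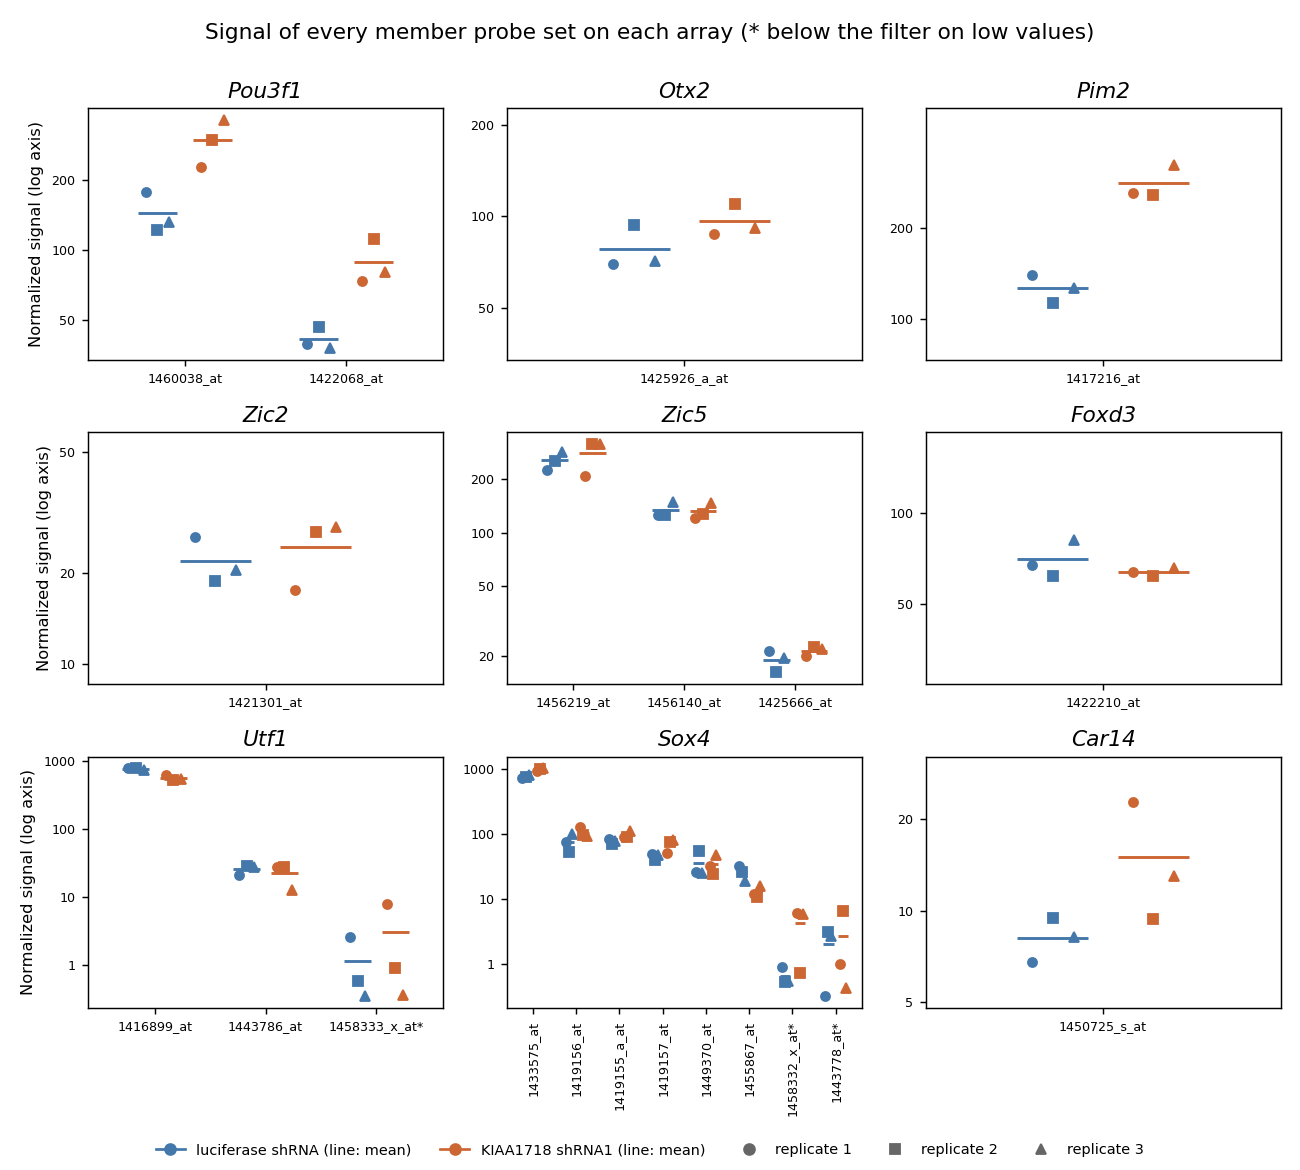
Normalized signal (log axis, arbitrary units) of the 21 member probe sets on the 3 luciferase shRNA and 3 KIAA1718 shRNA1 arrays, with symbols for replicate numbers and lines for group means; an asterisk marks the 3 probe sets too dim to be tested. Both Pou3f1 probe sets and Pim2 separate by group, while Otx2, Zic2, Zic5 and Foxd3 overlap.

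Pou3f1, a POU-domain transcription factor gene of the formative epiblast and later of neural and Schwann cells, was measured by 2 probe sets. The brighter, 1460038_at, had signals of 177, 122 and 132 on control replicates 1, 2 and 3 and of 227, 297 and 361 on KIAA1718 shRNA1 replicates 1, 2 and 3. Control replicate 1 was the highest control and KIAA1718 shRNA1 replicate 1 the lowest of its group, and the groups did not overlap. The difference was 0.95 ± 0.17 (log2 ± SE, limma adjusted p = 0.0123). The second probe set, 1422068_at, read 39.8, 47.0 and 38.0 in controls and 73.9, 111 and 80.3 with KIAA1718 shRNA1, a difference of 0.85 ± 0.15 (limma adjusted p = 0.0123). Both probe sets thus put every KIAA1718 shRNA1 array above every control array, by a ratio of mean signals of 2.05 and 2.13.

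The same-numbered arrays differed by 0.33, 1.18 and 1.35 (log2) for the brighter Pou3f1 probe set and by 0.69, 1.02 and 0.84 for the other. The smallest rise was in replicate 1 for both. Without luciferase replicate 3 the brighter probe set differed by 0.91 and the other by 0.80, each with a limma adjusted p of 0.0735. Without KIAA1718 shRNA1 replicate 3 the brighter one differed by 0.80 (limma adjusted p = 0.0585) and the other by 0.89 (limma adjusted p = 0.0399). Over 15 alternative settings the brighter one kept its call in 11 and the other in 13. Both lost it when dim probe sets were not left out (limma adjusted p = 0.0629 and 0.0584).

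Pim2, which encodes a constitutively active kinase of the Pim family, gave the largest difference among the members. Its probe set read 140, 113 and 127 on the control arrays and 262, 258 and 324 on the KIAA1718 shRNA1 arrays. The lowest KIAA1718 shRNA1 array was well above the highest control. The means were 127 ± 13.6 and 281 ± 37.0 (SD, n = 3), a difference of 1.06 ± 0.13 (log2 ± SE, limma adjusted p = 0.00136), and same-numbered arrays differed by 0.83, 1.09 and 1.25. It passed in all 15 alternatives, with differences of 0.85 to 1.19. Its paralogs Pim1 and Pim3 differed by -0.08 and -0.07 and did not pass (limma adjusted p = 0.831 and 0.731).

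Utf1 moved the other way. This gene of undifferentiated pluripotent cells, a target of Oct4 and Sox2, read 785, 785 and 732 on the control arrays with its brightest probe set, 1416899_at, and 627, 521 and 544 on the KIAA1718 shRNA1 arrays. The groups did not overlap, and the 3 control values lay close together. The difference was -0.44 ± 0.09 (limma adjusted p = 0.0245). The call was kept in 6 of 15 alternatives with differences of -0.52 to -0.32 over all 15, and it was lost on leaving out any array except KIAA1718 shRNA1 replicate 1 (limma adjusted p of 0.0655 to 0.0957). A second, dim Utf1 probe set differed by -0.13 ± 0.18 (limma adjusted p = 0.759), with overlapping groups and 12.5 on KIAA1718 shRNA1 replicate 3 against 20.6 to 27.9 on the other arrays. The third had signals between 0.340 and 7.91 and was not tested. Averaging the 2 tested probe sets gave -0.28 for Utf1 (limma adjusted p = 0.158), so the call belongs to its brightest probe set.

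Sox4, a transcription factor gene of the SoxC group active in many progenitors, had 8 probe sets that did not all move alike. The brightest, 1433575_at, read 728, 753 and 828 in controls and 941, 989 and 1045 with KIAA1718 shRNA1. All 3 KIAA1718 shRNA1 arrays were above all controls, by much the same amount in each numbered pair (0.36, 0.39 and 0.33). The difference was 0.36 ± 0.08 (limma adjusted p = 0.0352), and its call was the least stable of the 5: it was kept in 4 of 15 alternatives, with differences of 0.32 to 0.47 over the 15, and lost without any 1 of the 6 arrays (limma adjusted p of 0.0546 to 0.139).

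The other 5 tested Sox4 probe sets did not pass. Of these, 4 were designed on 1 source sequence and differed by 0.42 ± 0.18, 0.27 ± 0.13, 0.45 ± 0.15 and 0 ± 0.22 (limma adjusted p of 0.138 or higher). The first 3 leaned in the direction of the brightest probe set, and the groups of those at 0.27 and 0.45 did not overlap. The probe set 1455867_at went the other way, from 32.5, 26.2 and 19.0 in controls to 12.1, 10.8 and 15.9. Its groups did not overlap, and its difference was -0.52 ± 0.15 (limma adjusted p = 0.0827). It stayed below 0 in all 14 alternatives in which it was tested, from -0.93 to -0.22, and passed in none. Averaging the 6 tested probe sets gave 0.16 for Sox4 (limma adjusted p = 0.339), so the Sox4 call belongs to its brightest probe set alone. The remaining 2 Sox4 probe sets had signals of 6.58 or less on all arrays and were not tested.

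**Figure D2:**
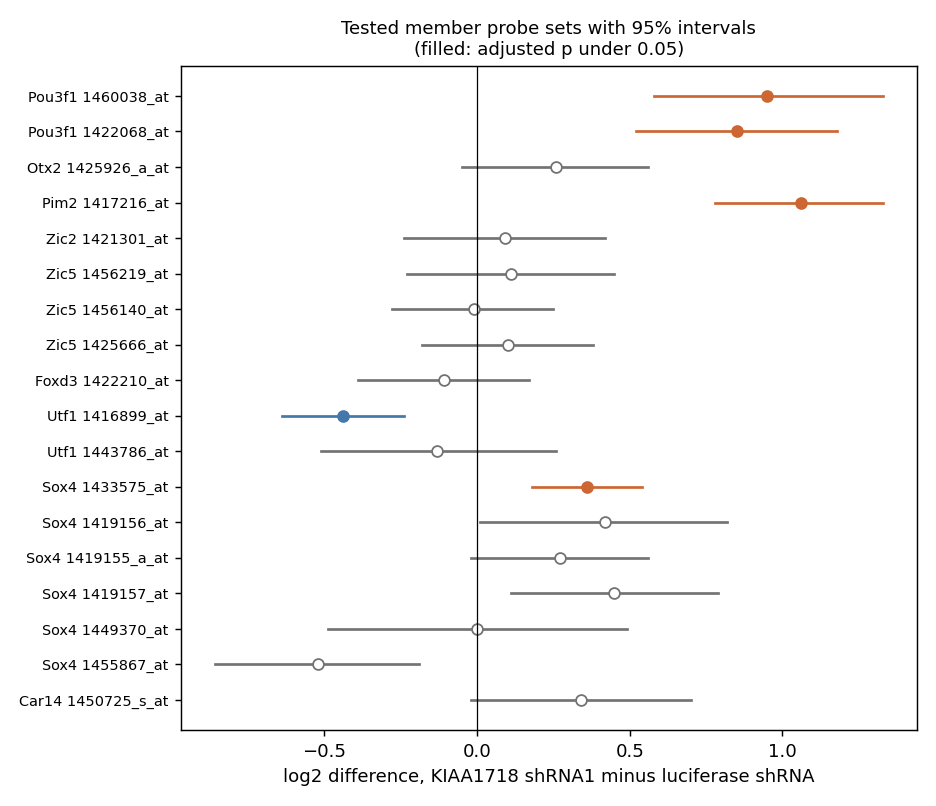
Difference between KIAA1718 shRNA1 and luciferase shRNA (log2, points) with 95% intervals (lines) for the 18 tested member probe sets; filled points passed at an adjusted p under 0.05. Pim2 at 1.06 and the Pou3f1 probe sets at 0.95 and 0.85 stand furthest to the right, the intervals of the Zic genes and Foxd3 span 0, and the Sox4 probe sets run from -0.52 to 0.45.

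Otx2, which encodes the homeodomain factor of the primed epiblast and the anterior brain, read 69.5, 93.9 and 71.3 in controls and 87.2, 110 and 91.6 with KIAA1718 shRNA1. Control replicate 2 lay above the 2 lower KIAA1718 shRNA1 arrays, so the groups overlapped. The difference was 0.26 ± 0.14 with a 95% interval of -0.05 to 0.56 (limma adjusted p = 0.358). Same-numbered arrays differed by 0.27, 0.20 and 0.30, all upward and of similar size, and blocking on the replicate number gave an adjusted p of 0.233.

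The Zic genes encode zinc finger factors of the primed epiblast and the neural plate, and none of their probe sets passed. The single Zic2 probe set read 26.3, 18.8 and 20.4 in controls and 17.6, 27.3 and 28.4 with KIAA1718 shRNA1, so replicate 1 went down and replicates 2 and 3 up. Its difference was 0.09 ± 0.15 (95% interval -0.24 to 0.42, limma adjusted p = 0.804). The 3 Zic5 probe sets differed by 0.11 ± 0.16, -0.01 ± 0.12 and 0.10 ± 0.13, with intervals reaching no further than -0.28 and 0.45. The one at -0.01 changed sign in 5 of 15 alternatives, unscaled values included. The brightest of them read 227, 255 and 286 in controls and 208, 316 and 318 with KIAA1718 shRNA1, and here too replicate 1 alone fell. For the Zic2 probe set and each Zic5 probe set, the same-numbered pair 1 was below 0 and pair 2 above it.

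Foxd3, a forkhead factor gene needed for the epiblast and for neural crest, read 67.6, 62.2 and 81.7 in controls and 64.1, 61.8 and 66.1 with KIAA1718 shRNA1. The groups overlapped, and the difference was -0.11 ± 0.13 (95% interval -0.39 to 0.17, limma adjusted p = 0.714), or 0 with unscaled values. Car14 was dim, at 6.76, 9.45 and 8.17 in controls and 22.8, 9.39 and 13.0 with KIAA1718 shRNA1, where replicate 1 was the highest array and replicate 2 lay within the controls. Its difference was 0.34 ± 0.16 (95% interval -0.02 to 0.70, limma adjusted p = 0.289), and its probe set is of a class that can match transcripts of more than 1 gene.

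The genes most like each changed member over the 6 arrays were taken by the smallest root mean square distance between log2 values centred on their means, among 12189 named genes. For Pim2 these were Sema3e at 0.0847, Parp9 at 0.101 and Trh at 0.107. For the brighter Pou3f1 probe set they were Trh at 0.0865, Nefl at 0.101 and Rhpn2 at 0.127, and for the second Pou3f1 probe set Ifi35 at 0.0588, Tom1l1 at 0.0701 and Clu at 0.0828. Trh, the gene of thyrotropin-releasing hormone, appeared for both Pim2 and Pou3f1, and its own difference was 1.00. With arrays of 2 groups the distance mostly picks genes with a group difference of like size, so a shared gene shows no separate link. For Utf1 they were Hspb1 at 0.0320, Morn4 at 0.0373 and Asap2 at 0.0385, and for Sox4 Ndel1 at 0.0376, Jph4 at 0.0456 and F5 at 0.0494. Of the genes near Utf1 and Sox4, Hspb1 alone passed (limma adjusted p = 0.0209), and the others had limma adjusted p of 0.0618 to 0.227.

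Other genes of the formative and primed states were read in the same way. Counted by gene, with the brightest probe set standing for each, 4.82% of 12742 genes were called, 2.64% higher and 2.17% lower. Of 11 other formative and primed genes on the array, all tested, 2 rose, none fell and 9 did not pass (limma; 5 were higher and 2 lower at an unadjusted p under 0.05), with a median of 0.17 against 0 over all genes. Dnmt3b, a de novo DNA methyltransferase gene of the epiblast, read 888, 758 and 688 in controls and 1408, 1482 and 1217 with KIAA1718 shRNA1. Its difference was 0.81 ± 0.10 (limma adjusted p = 0.00205). Dnmt3a, also a de novo methyltransferase gene, read 425, 369 and 325 against 307, 283 and 298. The Dnmt3a groups did not overlap, and it leaned lower without passing (-0.31 ± 0.11, limma adjusted p = 0.157). Cdh2, which encodes N-cadherin, read 167, 156 and 240 against 307, 330 and 317 (0.73 ± 0.14, limma adjusted p = 0.0188), and without luciferase replicate 2, KIAA1718 shRNA1 replicate 2 or KIAA1718 shRNA1 replicate 3 its adjusted p was 0.0608, 0.0609 or 0.0700. Fgf5, the growth factor gene most used to mark the primed epiblast, was dim at 10.7, 21.1 and 8.58 in controls and 21.0, 48.6 and 42.9 with KIAA1718 shRNA1, where replicate 1 lay within the controls; its difference was 0.84 ± 0.22 (limma adjusted p = 0.0556), and the blocked fit gave an adjusted p of 0.0109. The tight junction gene Cldn6 differed by 0.51 ± 0.14 (limma adjusted p = 0.0695, and 0.0290 with the block) and Sox3 by 0.17 ± 0.15 (limma adjusted p = 0.583). With the block, 4 genes of this list were higher and 1, Tcf15, lower (-0.35, limma adjusted p = 0.120, and 0.0462 blocked).

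Genes of the primitive streak and early germ layers, which follow the primed state in the embryo, were mostly dim. Of 12 on the array 7 were tested, and Fgf8 alone was called, higher, while 6 did not pass. This growth factor gene was at 2.88, 4.93 and 2.82 in controls and 15.4, 16.3 and 16.8 with KIAA1718 shRNA1 (0.72 ± 0.13, limma adjusted p = 0.0113). Its difference ran from 0.25 to 1.95 over 14 alternatives, with signals near or below the pseudocount of 16. Its control mean of 3.55 lay below 6.5, the lowest mean signal tested, so it entered the test only through the KIAA1718 shRNA1 arrays, and its call is no support for the list. Without luciferase replicate 3 or KIAA1718 shRNA1 replicate 3 its call was lost. The Wnt ligand gene Wnt8a read 12.3, 8.78 and 11.0 against 20.6, 27.7 and 18.0 and did not pass (0.51 ± 0.14, limma adjusted p = 0.0717). The other 5, Wnt3, Gsc, Lhx1, Evx1 and Cer1, stayed at 12.3 or less on all arrays and were not tested.

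Naive pluripotency genes were the list with the most members called. Of 15, all tested, 9 fell, 1 rose and 5 did not pass, and the median was -0.75; in the blocked fit Nanog (-0.42, limma adjusted p = 0.159, and 0.0488 blocked) made 10 lower. Tbx3 read 217, 266 and 281 in controls and 85.5, 75.0 and 54.7 with KIAA1718 shRNA1, Tfcp2l1 381, 453 and 371 against 242, 109 and 162, and Esrrb 573, 560 and 619 against 334, 181 and 262 (limma adjusted p of 0.0096 or lower). For Tfcp2l1 and Esrrb, KIAA1718 shRNA1 replicate 1 kept the most signal of its group. The same array had the lowest signal of its group for both Pou3f1 probe sets, whereas for Pim2 replicate 2 was lowest (258, against 262 on replicate 1). A link between these ranks was not tested. Dppa3 was the gene of this list that rose (0.94 ± 0.20, limma adjusted p = 0.0263), and it lost its call on leaving out any array but luciferase replicate 1. Among 6 core pluripotency genes none passed (limma; none higher and 1 lower at an unadjusted p under 0.05). The nearest were Dppa4 at -0.25 ± 0.10 (limma adjusted p = 0.201) and Tdgf1 at 0.12 ± 0.06 (limma adjusted p = 0.316), and Pou5f1 differed by -0.15 ± 0.09 (limma adjusted p = 0.387).

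Of 18 paralogs of the members on the array 13 were tested, 2 rose and 11 did not pass, and both that rose encode carbonic anhydrases: Car2 went from 1427, 1296 and 1331 to 1854, 1844 and 2086 (0.51 ± 0.07, limma adjusted p = 0.00358) and Car4 from 39.6, 24.2 and 22.6 to 57.3, 55.6 and 56.7 (0.72 ± 0.15, limma adjusted p = 0.0277). Car2 passed in all 15 alternatives, whereas Car4 lost its call without any array except luciferase replicate 1. Of the POU relatives of Pou3f1, Pou3f3 differed by 0.10 (limma adjusted p = 0.793), and Pou3f2 and Pou3f4 were too dim to test, with signals of 10.5 or less. Sox11, the SoxC relative of Sox4, read 162, 103 and 155 against 190, 188 and 219, with no overlap, but did not pass (0.48 ± 0.15, limma adjusted p = 0.112; 0.0445 in the blocked fit).

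**Figure D3:**
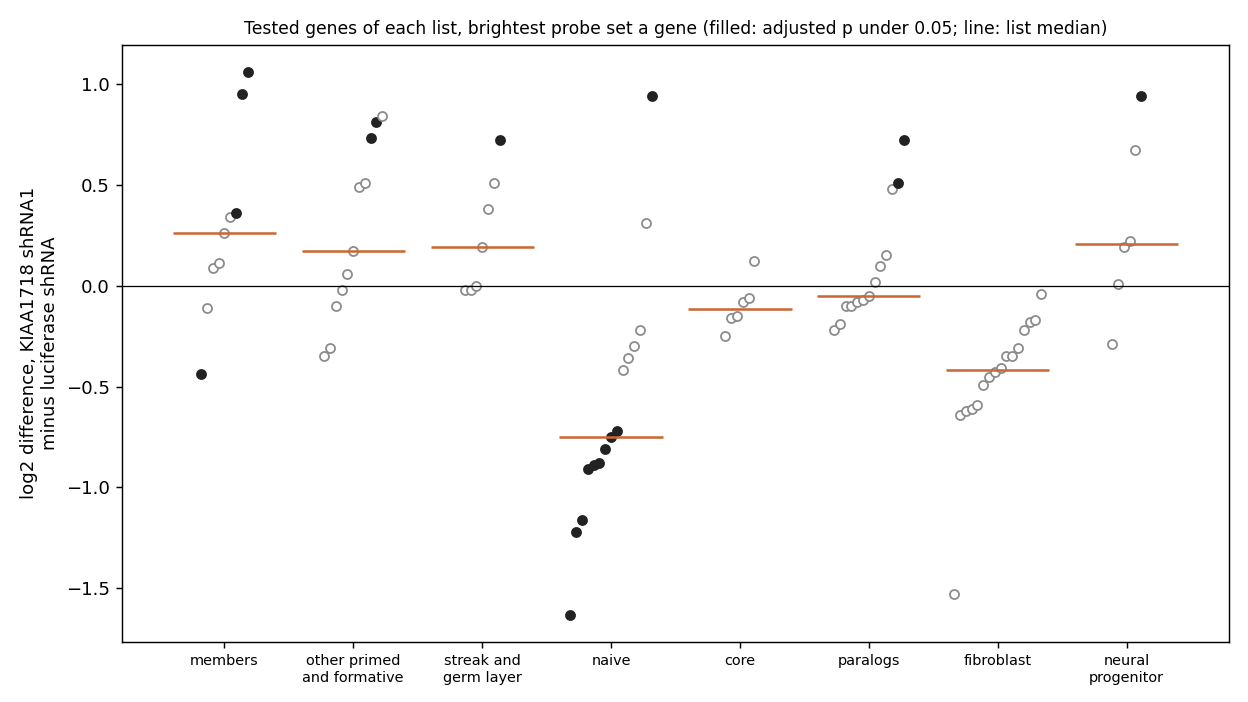
Difference between KIAA1718 shRNA1 and luciferase shRNA (log2) for each tested gene of the members, of 5 neighbouring lists and of fibroblast and neural progenitor markers, with 1 point a gene and a line at each list's median; filled points passed at an adjusted p under 0.05. The members spread from -0.44 to 1.06 around a median of 0.26, and the naive genes lie mostly below 0, around -0.75.

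Because Pou3f1, Otx2, the Zic genes and Sox4 are also expressed in neural cells, and Sox4 in fibroblasts, markers of these cells were read beside them. In bulk RNA, fewer cells of a type and less RNA per cell cannot be told apart. Of 9 neural progenitor markers on the array 6 were tested. Fabp7 rose (0.94 ± 0.16, limma adjusted p = 0.0112), and the other 5 did not pass, among them Nes at 0.67 (limma adjusted p = 0.107) and Sox1 at -0.29 (limma adjusted p = 0.320). Hes5, Neurog2 and Pax3 were below the filter, at 9.38 or less. The summed signal of the 9 was 199.6 to 227 in controls and 257 to 296 with KIAA1718 shRNA1. Of 5 tested neural crest markers none passed (limma; 1 higher and none lower at an unadjusted p under 0.05), though Snai2 was lower in the blocked fit (-0.50, limma adjusted p = 0.478, and 0.0394 blocked), and their sums overlapped, at 146 to 279 and 143 to 272 for the 6 on the array.

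Fibroblast markers differed between arrays more than any other marker list. Their mean over 16 genes in log2 units was 7.30, 8.09 and 8.07 on the control arrays in order of replicate number and 7.10, 7.44 and 7.52 on the KIAA1718 shRNA1 arrays, so control replicate 1 lay within the range of the KIAA1718 shRNA1 arrays. The summed signal was 4787 to 8663 and 4416 to 6018. All 16 lay below 0 with a median of -0.42, none passed (limma; none higher and 5 lower at an unadjusted p under 0.05), and 8 were lower when same-numbered arrays were blocked. With this mean as a covariate Pim2 differed by 1.00 (limma adjusted p = 0.0162) and Pou3f1 by 0.93 and 0.87 in its dimmer and brighter probe sets (limma adjusted p = 0.0454 and 0.0900), while Utf1 at -0.51 and Sox4 at 0.44 did not pass (limma adjusted p = 0.0740 and 0.0808). Among the remaining markers, the primitive endoderm genes Sox7 and Dab2 fell by 0.85 and 0.59 on the log2 scale (limma adjusted p = 0.00834 and 0.0344), 2 of 6 tested, with sums of 182 to 198 and 113 to 131. Sox7 lost its call without luciferase replicate 3 and Dab2 without any array except luciferase replicate 1, and both lost it with the fibroblast covariate. Of 4 tested trophectoderm markers none passed (limma; none at an unadjusted p under 0.05), with sums of 277 to 307 and 287 to 335. The fibroblast mean used as a covariate partly followed the groups, so with 6 arrays fibroblast RNA and the shRNA cannot be told apart by that fit. The part of the fibroblast, neural and primitive endoderm markers in the members' values was not tested.

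**Figure D4:**
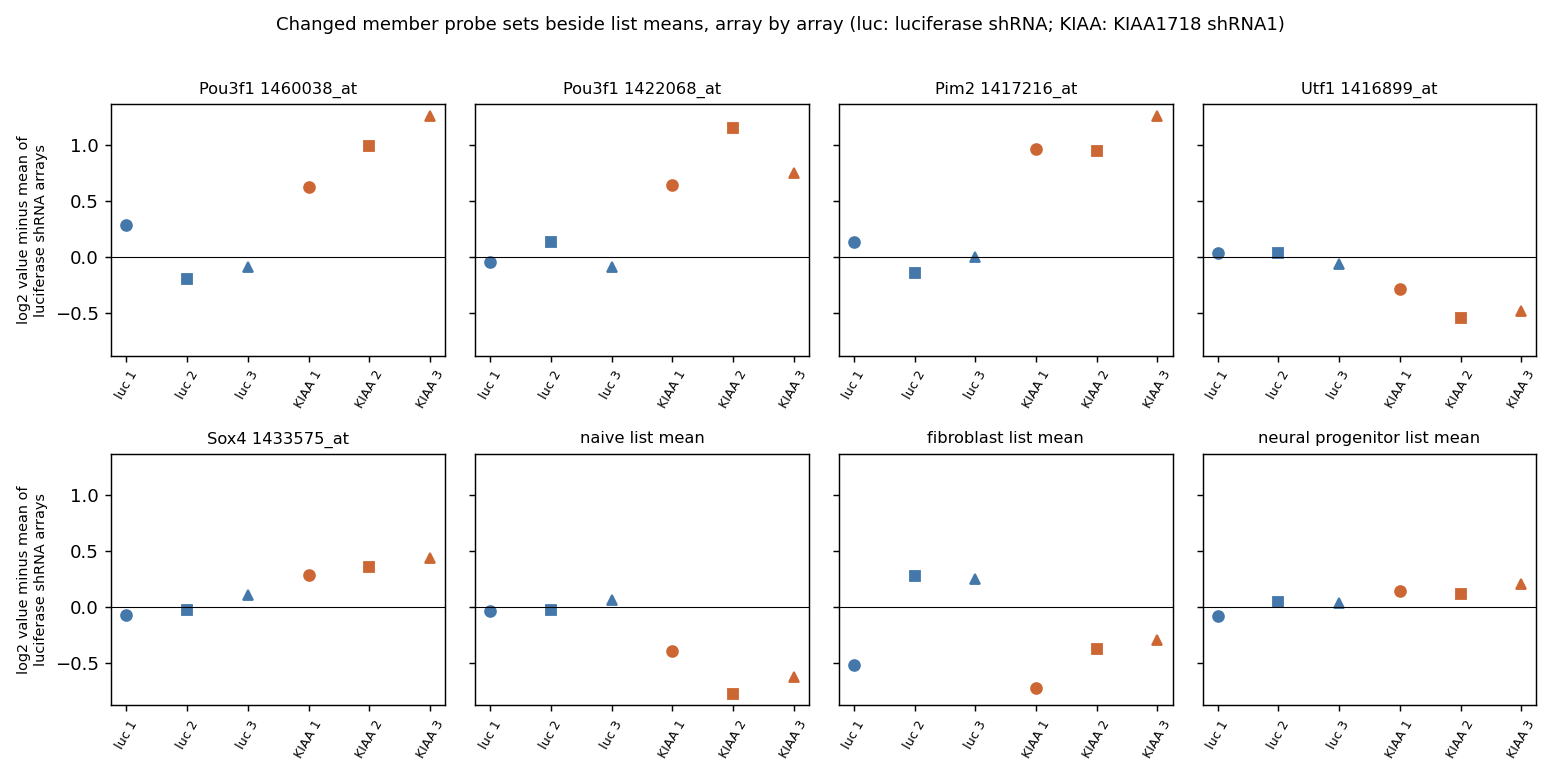
Log2 values of the 5 changed member probe sets and mean log2 values of the naive, fibroblast and neural progenitor lists on each array, relative to the mean of the 3 luciferase shRNA arrays. In the KIAA1718 shRNA1 group, Pim2, Pou3f1, Sox4 and the neural progenitor mean are above every control array, and Utf1 and the naive mean are below. The fibroblast mean of control replicate 1 lies among the KIAA1718 shRNA1 arrays.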

How the data were processed

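RNA was measured on 6 Affymetrix Mouse Genome 430 2.0 arrays, 3 a group, and groups and replicate numbers were read from the titles. The deposited values are linear signal intensities per probe set; GCOS is named in the submitters' processing notes, with settings and genome build not given in the sources used here. Array medians ran from 9.58 to 13.3, so the intensities were quantile normalized, 16 was added and log2 taken. The 64 control probe sets and the 40% with the lowest mean were left out. The two-sided test was limma 3.58.1 under R 4.3.3, with an intensity trend in eBayes and p-values adjusted by Benjamini-Hochberg over 27022 probe sets; the number of arrays limits the precision. Symbols are those of the array's annotation, updated through the Entrez number with RefSeq. The members and lists were chosen with earlier results of these data known.

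Named genes are all members, up to 3 called genes of each list with the largest difference (or the 2 with the smallest p), and the 3 genes nearest in pattern to each changed member. Fgf5, Dnmt3a, Cldn6, Sox3, Sox11, Pou3f3, Pim1, Pim3, Dppa3, Nanog, Tcf15, Pou5f1, Kdm7a and the marker genes were named after their values were seen, as were the alternatives for list genes. Same-numbered arrays deviated together (correlations of 0.203, 0.125 and 0.132), so the numbers were taken as pairs, on the data alone. The pairing came from the same values that the blocked fit tests, so calls gained with the block are no independent support. The block is given where it changes a call or count, for fibroblast markers as a count. No 2 arrays held identical values.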

Additional observations from a re-analysis of the deposited data

How the results depend on the processing

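Pim2 kept its direction and call in all 15 alternatives, and the changed member probe sets of Pou3f1, Utf1 and Sox4 kept their direction in all 15. Member probe sets changed numbered 5; they were 3 without scaling, 1 without the filter on low values, 3 without the intensity trend, 2 with the fibroblast mean as a covariate and 1 to 4 without 1 array. Over all probe sets 993 changed; 576 did without scaling, 290 without the filter, 631 without the trend, 249 with the fibroblast covariate, 1683 with replicate number as a block and 263 to 829 without 1 array. Genes changed numbered 614, and 364, 197, 391, 153 and 1005 in those settings, 167 to 526 without 1 array and 951 with the mean of each gene's probe sets. Neighbouring list genes changed went from 15 to 9 without the filter, 9 with the covariate, 20 with the block and 10 to 17 without 1 array (10 without luciferase replicate 3). Without the filter 45037 probe sets entered the adjustment; the cause of the other changes was not tested. Replicate number as a block changed no member's call.

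Values that changed sign belonged to member probe sets that had not passed. Foxd3 was 0 and Zic5 1456140_at 0.11 without scaling, the latter 0.08 with the covariate and -0.08 to 0.06 without 1 array. Sox4 1449370_at, near 0, was 0 with a pseudocount of 64 and -0.17 to 0.26 without 1 array, and Utf1 1443786_at was -0.23 to 0.08 without 1 array, the last without KIAA1718 shRNA1 replicate 3. Leaving out luciferase replicate 3 left Pim2 as the only called member.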

Other observations

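The promoter windows not printed held few of the 6 motifs. The Foxd3 window, with a GC content of 65.6%, held an E-box 217 bases before the start, and 6.02% of all windows held one. Of the 4 Otx2 windows, 1 held a TATA box at 192 bases, 1 a CCAAT box at 70 bases and 1 a STAT site at 113 bases. The Car14 and Zic5 windows held none. The Pim2 window had 22 CpG dinucleotides in 250 bases, more than 85.2% of all windows, where the median was 6.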
